A study of Homo sapiens with 3 samples.

Results

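The genes described here encode parts of the machinery that stores and releases neurotransmitters and peptide hormones. They are CHGB, SNAP25, SYP, CPLX1, SCAMP5, SLC6A9, CELSR3, STX1A, SYN1 and RAB3A. Of these 10 genes, named by symbol, 9 were found among the 12040 genes of the authors' deposited table, and a fold change of SYN1 was not analysed here. The genes were chosen by their log2 fold changes in that table, mainly in the first of its 2 fold change columns, so their high values there are a description of the choice and not a finding. The group is looser than a vesicle proteome. SLC6A9 is a transporter of the plasma membrane, CELSR3 is an adhesion protein, and STX1A and SNAP25 act at the plasma membrane to which vesicles fuse.

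The values come from poly(A) RNA of HEK293 cells, an established human embryonic kidney line, in a T-REx Flp-In derivative that carries a FLAG-tagged DICER1 transgene. The study had 3 groups of 1 library each, made after RNA interference by transfection: knockdown of DICER1, knockdown of DROSHA and mock transfection. All 3 titles carry the mark 2.5 d, which the labels do not explain further. All 3 groups shared the transgene, and the sources used here do not say whether it was induced. DICER1 cuts miRNA precursors to mature miRNAs, and DROSHA releases those precursors from the primary transcripts one step earlier.

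The deposited table has no column names, so its fold change columns are called comparison A and comparison B, in the table's own order. Which knockdown each stands for is not stated there, so neither is tied to one. The comparisons share 1 denominator library. DICER1 in the authors' deposited table was at -1.32 in comparison A and 0.58 in B, and DROSHA at -0.11 in A and -1.65 in B. Levels of single libraries are not printed, because the 3 level columns match no sample by name, and the depth of the libraries is unknown. With 1 library a group there is no replicate error and no test. Genes at or beyond 1 or -1 on the log2 scale, a 2-fold difference, are called higher or lower. Over all genes the SD was 0.227 in comparison A and 0.298 in B.

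Regulated secretion works in steps. Vesicles carry tetraspan membrane proteins such as synaptophysin and the GTPase RAB3A, and they fuse when the SNARE proteins SNAP25, syntaxin-1 and a vesicle synaptobrevin zip into 1 bundle, to which complexin binds. Neurons and endocrine cells use this route for small synaptic vesicles and for dense granules, which are filled with granins. Non-neuronal cells keep many of these genes low, in part through the repressor REST, and secrete through broadly expressed paralogs.

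The genes split into a group of 7 that stood together at the top of comparison A and a pair, STX1A and RAB3A, that ranked 429 and 1566 of 12040 there. The 7 were the 7 highest of the 12040 genes in comparison A, between 1.33 and 2.09, and the next gene, TMEM145, stood at 1.33 in the authors' deposited table. So 7 of the 9 were higher and none lower, while 0.174% of all genes were higher and 0.166% lower. The genes were chosen on this comparison, and nothing is read from that count. In comparison B none of the 9 was higher and 2 were lower, SYP and CPLX1, while 0.0831% of all genes were higher and 0.748% lower. The median of the 9 genes was 1.41 in comparison A and -0.41 in B, and that of all genes was 0.03 in A and 0.01 in B. In bulk RNA, more cells of a kind and more RNA per cell cannot be told apart.

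**Figure D1:**
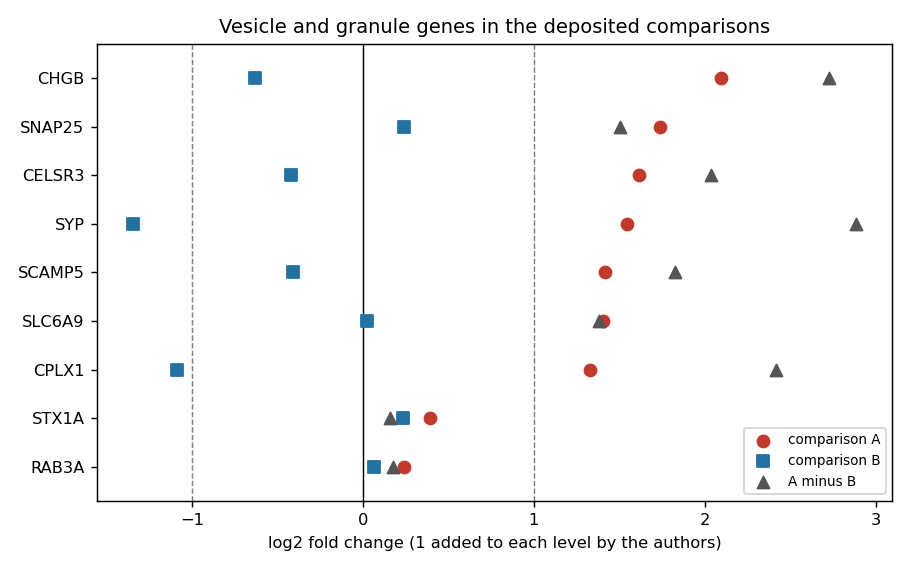
Log2 fold change (x axis) of the 9 genes (rows) in comparison A (circles), in comparison B (squares) and as A minus B (triangles), 1 value each, with dashed lines at a 2-fold difference. The circles of 7 genes lie above 1, while the squares run between -1.34 for SYP and 0.24 for SNAP25.

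Among granule cargo, CHGB, chromogranin B, an acidic protein of the granule core, had the highest value of all genes in comparison A. Its log2 fold change in the authors' deposited table was 2.09 in comparison A and -0.63 in B. On the linear scale, after the 1 that the authors added to each level, these are ratios of 4.26 in comparison A and 0.645 in B. In comparison B CHGB did not reach a 2-fold difference and ranked 378 from the bottom of 12040 genes.

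The SNARE proteins and their clamp did not move as 1 unit. SNAP25, which supplies helices of the SNARE bundle from the plasma membrane, stood at 1.74 in comparison A and 0.24 in B in the authors' deposited table. It was the highest of the 9 genes in comparison B, where it was within 2-fold. STX1A, syntaxin-1A, which pairs with SNAP25 on the same membrane, was at 0.39 in A and 0.23 in B in the authors' deposited table. CPLX1, complexin-1, which binds the assembled bundle, was at 1.33 in A and -1.09 in B in the authors' deposited table. SNAP25 and CPLX1 were thus both high in comparison A and on opposite sides of 0 in B, where STX1A lay beside SNAP25.

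Of the proteins carried by the vesicle, SYP and SCAMP5 were high in comparison A and below 0 in B, and RAB3A was neither. SYP, synaptophysin, an abundant tetraspan protein of synaptic vesicles, was at 1.54 in A and -1.34 in B in the authors' deposited table. These are ratios of 2.91 in A and 0.394 in B, and SYP was the lowest of the 9 in comparison B, 23rd from the bottom of all genes. SCAMP5, a tetraspan secretory carrier membrane protein found mainly in brain, was at 1.41 in A and -0.41 in B in the authors' deposited table. RAB3A, the GTPase of synaptic vesicles, stood within 2-fold in both, at 0.24 in A and 0.07 in B in the authors' deposited table.

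The surface proteins of the group were high in comparison A and within 2-fold in B. SLC6A9, the sodium-driven glycine transporter GLYT1, was at 1.40 in A and 0.02 in B in the authors' deposited table, so its value in B was close to the median of all genes. CELSR3, a large cadherin of the adhesion receptor family that guides axon tracts in the developing mouse brain, was at 1.61 in A and -0.42 in B in the authors' deposited table.

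A minus B sets the numerator libraries against each other, and the shared denominator library cancels in it. It was 2.89 for SYP, 2.72 for CHGB, 2.41 for CPLX1, 2.04 for CELSR3, 1.82 for SCAMP5, 1.502 for SNAP25 and 1.38 for SLC6A9. STX1A at 0.16 and RAB3A at 0.18 ranked 4012 and 3771 of 12040, and the median of all genes was 0.02. In this difference 7 of the 9 were higher and none lower, while 1.31% of all genes were higher and 0.349% lower. The difference is made of the values that chose the genes. The order of the genes was not that of comparison A: SYP ranked 2 and CHGB 4 among all genes, and SNAP25, second in comparison A, ranked 41.

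**Figure D2:**
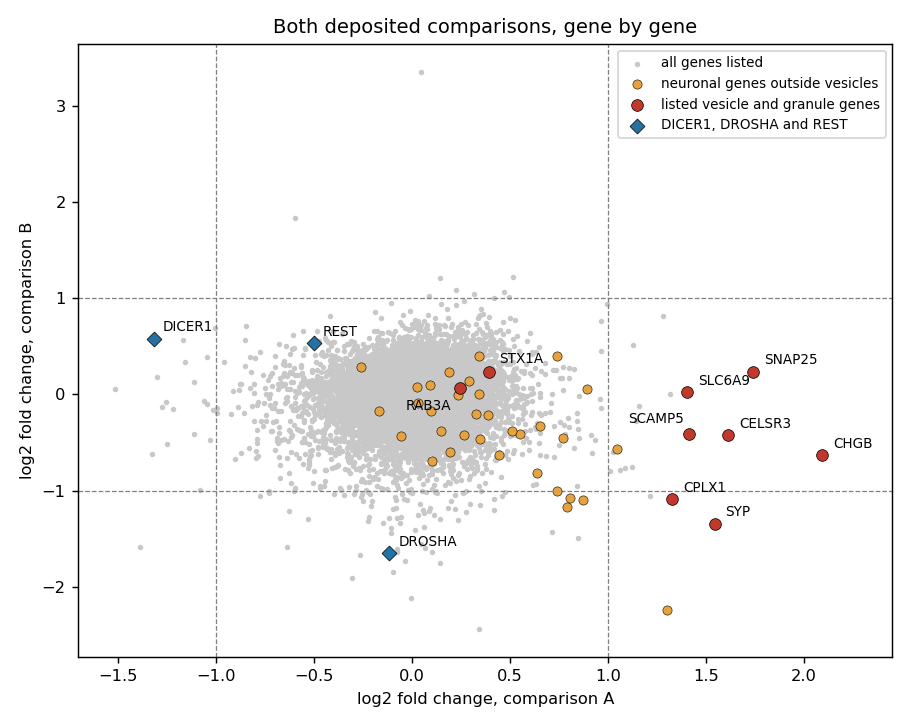
Log2 fold change in comparison A (x axis) against comparison B (y axis) for all 12040 genes (grey), the 9 vesicle and granule genes (red), 33 neuronal genes outside vesicles (orange), and DICER1, DROSHA and REST (diamonds), with dashed lines at a 2-fold difference. SYP and CPLX1 lie past the lines on both axes, high in comparison A and low in B, and REST lies at -0.50 and 0.53.

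Fold changes of these genes rest on low levels. The denominator level, whose unit the sources used here do not give, was below 2 in 3 of the 9 genes, below 5 in 8 and below 10 in all 9. The 1 that the authors added to each level brings every ratio closer to 1, so the printed fold changes are smaller in size than the ratios of the levels themselves. In 1 of the 9 genes the numerator level of comparison B was below 1. How far such low levels vary between libraries was not tested, as there were no replicates.

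Paralogs of these genes were within 2-fold in both comparisons. Over the 10 gene families 25 paralogs were measured, none of them a complexin. In comparison A they lay between -0.60 and 0.45 and in B between -0.67 and 0.72, so none was higher or lower. Of all genes 0.174% were higher and 0.166% lower in A, and 0.0831% higher and 0.748% lower in B. With shares so low, nothing is read from the absence of such genes among 25. Since the listed genes were chosen for high values, a gap to their paralogs in comparison A is partly built in.

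Against SNAP25, SNAP23, which takes its place in most non-neuronal cells, was at -0.52 in A and -0.67 in B in the authors' deposited table. SNAP29 was at 0.18 in A and -0.08 in B, and SNAP47 at -0.11 in A and 0.27 in B, in the authors' deposited table. The SNAP25 value therefore exceeded its highest paralog by 1.56 log2 units in comparison A and differed from its highest paralog by -0.03 in B.

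Around SYP, the authors' deposited table gave SYPL1, the widely expressed synaptophysin-like protein, 0.14 in comparison A and 0.72 in B. SYNGR1, synaptogyrin-1 of synaptic vesicles, was at 0.03 in A and -0.52 in B in the authors' deposited table. SYPL2, SYNGR2 and SYNGR3 lay between -0.04 and 0.35 in comparison A and between -0.05 and 0.17 in B in the authors' deposited table. SYP was thus above all 5 of these relatives in comparison A and below all 5 in B.

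SCAMP5 stood above SCAMP1, SCAMP2, SCAMP3 and SCAMP4 in comparison A, where SCAMP4 was the nearest at 0.45 in the authors' deposited table. In comparison B the authors' deposited table gave SCAMP4 -0.35, close to SCAMP5, while SCAMP1 and SCAMP3 were at 0.34 and 0.37 and SCAMP2 at 0.07. The comparison A values of SCAMP1, SCAMP2 and SCAMP3 were -0.06, 0.25 and 0.12 in the authors' deposited table.

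CELSR1 and CELSR2 were at 0.32 and 0.19 in comparison A and at -0.37 and -0.03 in B in the authors' deposited table. CELSR3 was therefore apart from its family by 1.30 in comparison A, and CELSR1 lay beside it in B. Among transporters of the SLC6 family, the creatine carrier SLC6A8 was at -0.11 in comparison A and 0.11 in B in the authors' deposited table. The taurine carrier SLC6A6 was at -0.08 in A and -0.02 in B, SLC6A11, which takes up GABA, at 0.03 in A and -0.35 in B, and SLC6A15 at 0.12 in A and -0.07 in B in the authors' deposited table. SLC6A9 exceeded the highest of these 4 by 1.28 log2 units in comparison A.

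STX1A and RAB3A were the highest measured members of their families in comparison A and not in B. Among syntaxins of the plasma membrane, STX3 was at -0.60 in A and 0.04 in B, STX2 at 0.10 in A and -0.39 in B, and STX4 at 0.13 in A and 0.35 in B in the authors' deposited table. RAB3B was at -0.21 in A and 0.08 in B, and RAB3D at 0.06 in A and 0.23 in B in the authors' deposited table. SYN2, a synapsin, was at 0.32 in A and 0.05 in B in the authors' deposited table. PCSK1N, a granin-like inhibitor of prohormone processing, was the 1 relative of CHGB measured, at 0.14 in A and -0.17 in B in the authors' deposited table.

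**Figure D3:**
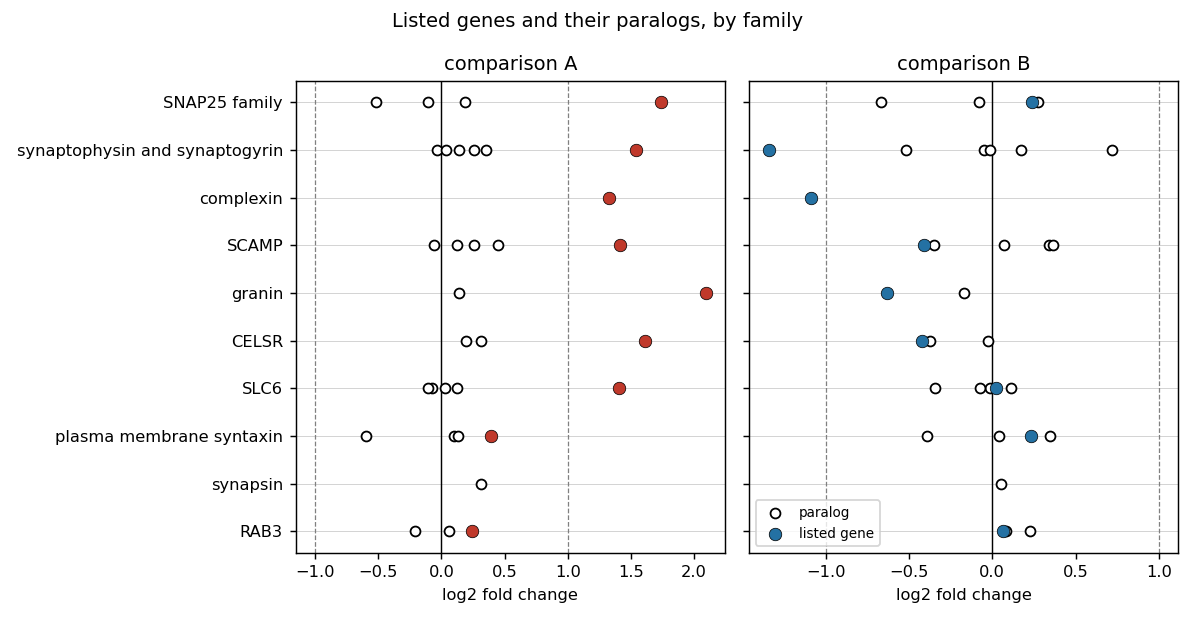
Log2 fold change (x axis) of each listed gene (filled) and its measured paralogs (open) by gene family (rows), in comparison A (left) and comparison B (right), with dashed lines at a 2-fold difference. In comparison A 7 filled points lie above 1 and no open point does. In B the filled points of SYP and CPLX1 lie below -1.

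The rest of the release machinery was spread around the values of all genes. The lists below were drawn from textbook knowledge, but with earlier results of these data known, so their counts are a description. Their counts stand against 0.174% of all genes higher in comparison A, 0.0831% higher and 0.748% lower in B, and 1.31% higher and 0.349% lower in A minus B. Of 22 other membrane and coat proteins of synaptic vesicles, none was higher or lower in comparison A, and the median was 0.13. SCAMP4 was the highest of them, at 0.45 in the authors' deposited table. In comparison B their median was 0.01, and TPRG1L, a presynaptic protein of vertebrates, alone was higher, at 1.01 in the authors' deposited table. VAMP2, the synaptobrevin that completes the SNARE bundle, was at 0.32 in A and 0.17 in B in the authors' deposited table.

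Regulators of SNARE assembly showed no gene past 2-fold among 18, with medians of 0.03 in comparison A and -0.04 in B. Their ends in comparison A were NAPG, an adaptor of the ATPase NSF, at -0.60 and DOC2A, a calcium sensor, at 0.66 in the authors' deposited table. In B they were NSF, which takes spent SNARE bundles apart, at -0.74 and STXBP5, tomosyn, at 0.44 in the authors' deposited table. For 16 genes of the RAB3 and RAB27 cycle the medians were -0.01 in both comparisons, with none past 2-fold in either. RAB3IL1 was highest at 0.53 and RPH3AL lowest at -0.32 in comparison A in the authors' deposited table. In B RAB27A was lowest at -0.69 and RAB3D highest at 0.23 in the authors' deposited table. RIMS4 alone of these 16 was higher in A minus B, at 1.12.

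The 19 scaffolds and channels of the active zone, the release site of the presynaptic membrane, had medians of 0.06 in comparison A and 0.05 in B. None of the 19 was past 2-fold in either or in their difference. LIN7B at 0.49 and PPFIA4 at -0.38 were the ends in comparison A, and PTPRD at 0.42 and PTPRS at -0.73 those in B, in the authors' deposited table.

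Other granule cargo and its processing enzymes mostly lay below 0 in comparison A, where CHGB was the highest gene. The 10 measured had a median of -0.15 in comparison A and 0.17 in B, and 7 of the 10 were below 0 in A and 7 above 0 in B. Of all 12040 genes 5231 were below 0 in A and 6153 above 0 in B. NTS, the neurotensin precursor, was the lowest in comparison A at -0.62, and CPE, which trims prohormones, was at -0.12 in A and 0.10 in B in the authors' deposited table. PAM, which amidates peptides, was at -0.29 in A and 0.38 in B in the authors' deposited table. SERPINI1, neuroserpin, a secreted protease inhibitor, was highest in both, at 0.15 in A and 1.22 in B in the authors' deposited table. TAC1, a tachykinin precursor, was the lowest in B at -0.27 in the authors' deposited table. In A minus B SERPINI1 was lower, at -1.07, and the list's median was -0.39, while CHGB stood at 2.72. The list's median in A minus B was -0.27 after the adjustment for transcript length and GC content described below.

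Of 36 genes of vesicle endocytosis, AP3B2 alone was higher in comparison A, at 1.06 in the authors' deposited table, and it was at -0.78 in B. AP3B2 is the subunit that marks the neuronal form of the AP-3 adaptor, and its ubiquitous counterpart AP3B1 was at 0.15 in A and 0.37 in B in the authors' deposited table. CLTB, a clathrin light chain, was lower in comparison B, at -1.01 in the authors' deposited table, and at -0.01 in A. ITSN2 at -0.34 was lowest in A, and AP2A1 at 0.61 highest in B, in the authors' deposited table. In A minus B AP3B2, at 1.85, and PACSIN3, at 1.05, were higher, 2 of 36, where 1.31% of all genes were higher. The list's medians were 0.06 in comparison A and -0.03 in B.

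The 31 SNAREs of constitutive traffic had medians of 0.03 in A and -0.04 in comparison B, with none past 2-fold. STX3 and STX10 were the ends of A, at -0.60 and 0.42, and SNAP23 and STX6 those of B, at -0.67 and 0.42, in the authors' deposited table. Of 24 planar polarity genes listed with the CELSR cadherins none was past 2-fold. Their medians were 0.05 in comparison A and -0.04 in B. In the authors' deposited table DVL2 was highest at 0.43 and FZD6 lowest at -0.38 in A, and PRICKLE1 highest at 0.35 and PTK7 lowest at -0.55 in B.

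Neuronal genes outside vesicles were displaced in the directions of SYP and CPLX1. This list too was chosen with earlier results of these data known, so its counts are not independent support. Of 33 measured, 30 were above 0 in comparison A, where 2 were higher and none lower, with a median of 0.34. Over all genes 6808 of 12040 were above 0 in A and 0.174% were higher. In comparison B 24 of the 33 were below 0, 5 were lower and none higher, with a median of -0.38. Over all genes 5887 of 12040 were below 0 in B and 0.748% were lower. STMN3, a stathmin that binds tubulin, was at 1.30 in A and -2.24 in B in the authors' deposited table. INA, an intermediate filament protein, was the other that was higher in A, at 1.05, and was at -0.57 in B in the authors' deposited table. CRMP1 at -1.17, CAMKV at -1.10, MAPK8IP2 at -1.08 and BEX1 at -1.003 were the other genes lower in B in the authors' deposited table. NOVA1 was the lowest in A at -0.26 and KIF5A the highest in B at 0.40 in the authors' deposited table. In A minus B 9 of the 33 were higher, among them STMN3 at 3.54, CAMKV at 1.97, CRMP1 at 1.96, MAPK8IP2 at 1.89, BEX1 at 1.74, INA at 1.61, TUBB3 at 1.46 and KCNC1 at 1.07. Of all genes 1.31% were higher in that difference.

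Markers of other cell types were few. Of 15 glial markers 5 were measured, none past 2-fold, with medians of 0.12 in comparison A and -0.19 in B. GLUL was highest at 0.38 and OLIG2 lowest at -0.26 in A, and SLC1A3 highest at 0.36 and GLUL lowest at -0.51 in B, in the authors' deposited table. Of 14 fibroblast and endothelial markers FBN1 alone was measured, at 0.12 in A and 0.06 in B in the authors' deposited table.

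**Figure D4:**
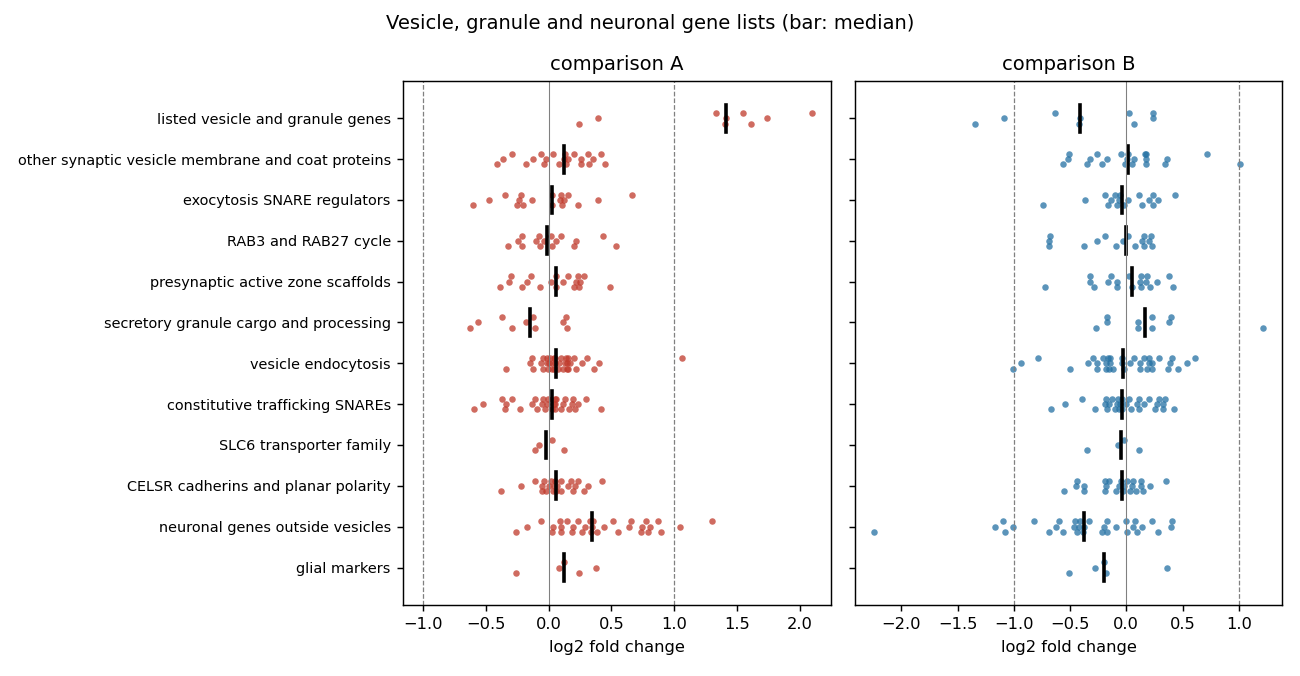
Log2 fold change (x axis) of every measured gene (points) of each list (rows) in comparison A (left) and comparison B (right), with bars at the medians and dashed lines at a 2-fold difference. Medians of the release machinery lie near 0, while that of the 33 neuronal genes outside vesicles is 0.34 in comparison A and -0.38 in B.

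REST, the repressor named above, was at -0.50 in comparison A and 0.53 in B in the authors' deposited table, and at -1.03 in their difference. REST binds a bipartite element. Upstream sequences were searched for exact copies of its left part, TTCAGCACC, and its right part, GGACAGCG, on both strands. RefSeq gave a promoter, 250 bases before to 50 after the start, for 7 of the 10 genes, CELSR3, RAB3A, SCAMP5, SLC6A9, STX1A, SYN1 and SYP. The left part was present in CELSR3 and SYN1, against 0.376% of all 35116 promoters, and the right part in CELSR3, against 1.63%. The cAMP response element TGACGTCA was present in SYN1, against 1.85% of all promoters. The GC box GGGCGG was present in 6 of the 7, all but SYN1, against 45.0% of all promoters, and TATAAA in none, against 11.5%. GC contents of the 7 promoters ran from 60.0% in SLC6A9 to 79.3% in STX1A, against a median of 58.7% over all promoters. The part of base composition in these matches was not tested. A match is a string of letters and not a shown binding site.

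Upstream sequences of 3 genes are given, CELSR3 and SYN1 because they hold parts of the REST element and SYP because it had the widest gap between the comparisons. Capitals mark REST element parts, the cAMP response element in SYN1 and GC boxes, on either strand. All are GRCh38.p14 from RefSeq, minus strand, written 5′ to 3′. The CELSR3 window is chr3:48663007-48663136, the SYN1 window chrX:47619998-47620107 and the SYP window chrX:49200194-49200323.
CELSR3: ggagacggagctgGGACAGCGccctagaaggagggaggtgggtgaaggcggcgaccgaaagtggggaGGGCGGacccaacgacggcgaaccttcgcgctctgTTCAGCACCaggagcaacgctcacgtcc
SYN1: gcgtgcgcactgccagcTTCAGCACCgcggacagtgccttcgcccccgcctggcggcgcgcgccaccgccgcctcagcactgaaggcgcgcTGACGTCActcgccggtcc
SYP: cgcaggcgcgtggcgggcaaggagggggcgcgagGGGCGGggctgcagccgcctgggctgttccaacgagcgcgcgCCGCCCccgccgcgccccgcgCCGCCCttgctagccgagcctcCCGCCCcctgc

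In CELSR3 the right part began 237 bases and the left part 148 bases before the start, so the parts stood apart and in the reverse of their usual order. In SYN1 the left part began 233 bases before the start. The bases soon after it, ggacagtg, resemble the right part without equalling it. Only exact strings were searched, so that stretch was not counted. SYP held GC boxes at 4 places, beginning 96, 54, 33 and 11 bases before the start, 3 of them on the other strand.

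Base composition moved with the fold changes across genes. A protein-coding transcript from GENCODE release 29 was found for 10585 genes, and the 9 genes among them had GC contents between 42.9% for SNAP25 and 67.5% for CPLX1, against a median of 49.1% over all. Across these genes, which share the same libraries, Spearman's rho between GC content and fold change was 0.39 in comparison A, -0.28 in B and 0.47 in their difference. Of the 9 genes, 6 lay among the 2117 of 10585 genes richest in GC, at or above 58.7%. Among those, 0.614% were higher in comparison A and 0.850% lower in B.

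After least squares adjustment for transcript length and GC content, the median of the 9 was 1.32 in comparison A, -0.32 in B and 1.66 in their difference. Adjusted values in comparison A were 2.05 for CHGB, 1.795 for SNAP25, 1.44 for CELSR3, 1.43 for SYP, 1.32 for SCAMP5, 1.28 for SLC6A9 and 1.14 for CPLX1, so all 7 stayed past 2-fold. These 7 were chosen for high values in this comparison, so nothing is read from their staying past it. In comparison B SYP stayed past 2-fold at -1.25, and CPLX1, at -0.89, did not. For the neuronal genes outside vesicles the adjusted medians were 0.29 in comparison A, -0.30 in B and 0.52 in their difference. Without adjustment they were 0.34, -0.38 and 0.68.

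**Figure D5:**
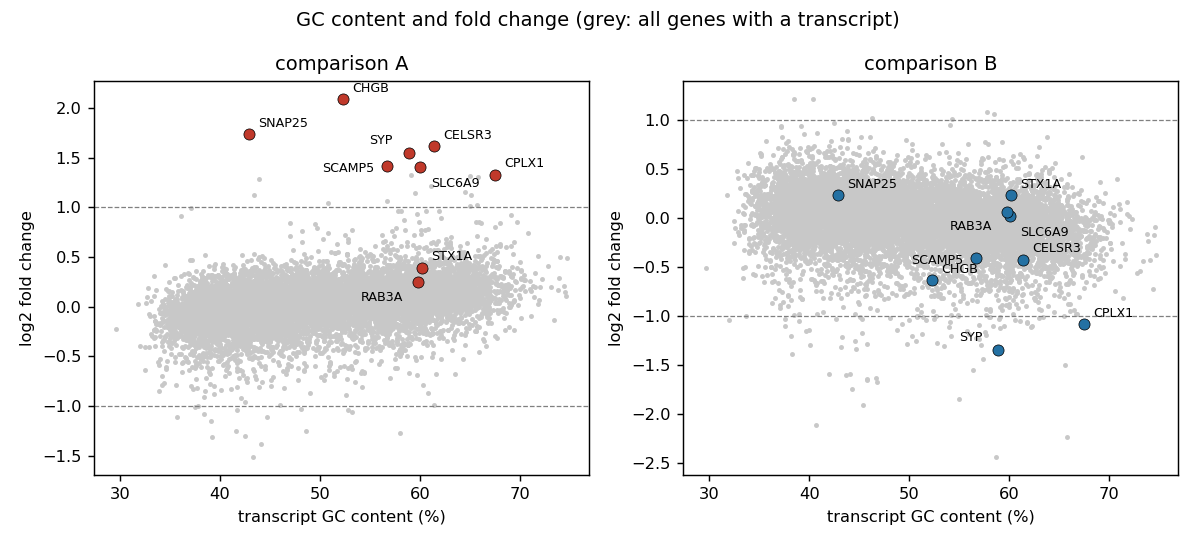
Transcript GC content in percent (x axis) against log2 fold change (y axis) for all genes with a transcript (grey) and the 9 vesicle and granule genes (coloured), in comparison A (left) and comparison B (right). The grey cloud rises with GC content on the left and falls on the right. SNAP25, at 42.9% GC, and CHGB, at 52.3%, lie highest on the left.

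Because both knockdowns act on miRNA maturation, the 3′ untranslated regions of these genes were searched for the 7 bases that pair with a miRNA seed, bases 2 to 8. Of the 9 genes 8 had a region of at least 50 bases, and SLC6A9, with 17, was left out. The match for miR-16-5p was in 4 of the 8, SNAP25, CPLX1, SCAMP5 and STX1A, against 22.5% of 10198 genes. SYP held 1 match for miR-10a-5p, against 12.5% of genes. SCAMP5 held 1 for miR-17-5p, against 22.7%, and 1 for miR-92a-3p, against 11.4%, and STX1A held 1 for let-7a-5p, against 1023 of 10198 genes. None of the 8 held the match for miR-19b-3p, found in 14.2% of genes, and CHGB, CELSR3 and RAB3A held none for the 6 miRNAs. Regions differed in length, between 312 bases in CHGB and 2510 in SCAMP5, and a longer region offers more places for a match. The miRNA with a match in 4 of the 8 and the miRNA with a match in SYP are shown, from RefSeq, with the seed in capitals.
miR-16-5p: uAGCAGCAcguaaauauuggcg
miR-10a-5p: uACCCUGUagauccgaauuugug

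SYP, SCAMP5 and RAB3A carried in this region a 7-mer that had been found, in these same data, to be common among the genes lowest in 1 of the comparisons. SYP carried GTGACTT and RAB3A TGACTTA, both linked to comparison B, and SCAMP5 carried AATCTAA, linked to A. SYP was lower in comparison B and RAB3A was not, and SCAMP5 was higher in A. The part of these sites in the values was not tested. CPLX1, CHGB and CELSR3, also below 0 in comparison B, carried none of the 4 such 7-mers. The share of all genes that carry one of these 7-mers is not given here, so nothing is read from the number of carriers.

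Genes next to the listed genes on the chromosome, taken in RefSeq order, were within 2-fold in both comparisons. The 18 measured neighbours had medians of 0.08 in comparison A and -0.05 in B. JUND, an AP-1 transcription factor beside RAB3A, was the highest in A at 0.85, and was at -0.36 in B, in the authors' deposited table. It alone was higher in A minus B, at 1.21, where 1.31% of all genes were higher. Shares over all genes were 0.174% higher and 0.166% lower in A, and 0.0831% higher and 0.748% lower in B. With shares so low, nothing is read from the absence of such genes among the 18 neighbours. Of the neighbours of CHGB, C20orf196 was the lowest of the 18 in both, at -0.40 in A and -0.61 in B, and TRMT6 was at -0.18 in A and -0.05 in B in the authors' deposited table. PRICKLE3, next to SYP, was at 0.06 in A and -0.04 in B in the authors' deposited table. NCKIPSD, next to CELSR3, was at 0.27 in A and -0.16 in B in the authors' deposited table. GAK, next to CPLX1, was at 0.36 in A and 0.21 in B in the authors' deposited table. The sources used here do not say whether strand was used in counting, and reads of SNAP25 and SYP cannot be told from their antisense genes SNAP25-AS1 and SYP-AS1. RPP25, which overlaps SCAMP5 on the other strand, was at 0.33 in A and 0.27 in B, and CCDC24, which overlaps SLC6A9, at 0.09 in A and 0.12 in B in the authors' deposited table. WBSCR22, which overlaps STX1A, was at 0.02 in A and 0.13 in B, and MPV17L2, which overlaps RAB3A, at -0.07 in A and 0.10 in B in the authors' deposited table.

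The genes most like the group in both comparisons, by the distance from its median pair of 1.41 and -0.41, were SESN2, HBA1, INA, ASPHD1 and SPTBN4. SESN2, a stress-induced sestrin, was at 1.14 in A and -0.27 in B in the authors' deposited table, a distance of 0.302. HBA1, an alpha globin with a near-identical copy that makes its value uncertain, was at 1.16 in A and -0.12 in B in the authors' deposited table. ASPHD1 was at 1.31 in A and 0.0033 in B, and SPTBN4, a spectrin of axons, at 1.03 in A and -0.59 in B in the authors' deposited table. Likeness here rests on only 2 values a gene.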

How the data were processed

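The 1 deposited table of log2 fold changes was made by the authors from 3 libraries, 1 in each group. The submitters' processing notes list, without roles, the build hg19 and the tools TopHat2 2.06, Cuffdiff 2.1.1, Cufflinks, SAMtools and CASAVA 1.8.2. The table has no header. A test on its values showed that each deposited log2 fold change is the log2 ratio of 2 levels after 1 was added to each, for all 12040 genes within a tolerance of 1e-11. The 3 level columns match no sample by name and served only for this test and for the counts of low levels.

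From the fold changes, counts past 2-fold, medians and A minus B were computed with Python 3.11.15 and pandas 2.3.3, with no p-value. The members and all 12 lists were chosen with earlier results of these data known. Named were all members and their paralogs, genes past 2-fold and at the ends of each list, neighbours, and the 5 genes nearest in pattern. Some genes that this rule names are not reported here. VAMP2, CPE, PAM and AP3B1 were named after their values were seen. Transcripts and overlaps came from GENCODE release 29 and promoters and miRNAs from RefSeq, both on GRCh38 and matched by symbol, while the table's build is hg19. The adjustment was tested on simulated data.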

Additional observations from a re-analysis of the deposited data

Results flagged for a closer look

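SYP and CPLX1 were picked out because their fold changes passed 2-fold in opposite directions in the 2 deposited comparisons. A minus B was 2.89 for SYP and 2.41 for CPLX1. After adjustment for transcript length and GC content SYP stayed past 2-fold in comparison B, at -1.25, and CPLX1, at -0.89, did not. With 1 library a group, this difference was not tested. SYP carried GTGACTT in its 3′ untranslated region and CPLX1 none of the 4 7-mers searched, and the part of such sites in the difference was not tested.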

How the results depend on the processing

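With 1 library a group, depth unknown and no replicates, every value describes these libraries. No paired analysis was possible because each group has 1 library. At a 3-fold threshold 3 of the 9 genes were past it in comparison A and 0 in B, against 7 and 2 at 2-fold. The mean in place of the median was 1.31 in comparison A and 1.68 in A minus B. The adjustment for length and GC content gave a median of 1.66 for A minus B. Without SYP, SCAMP5 and RAB3A, which carry one of the 7-mers, the median in comparison B was -0.20, against -0.41 with them. The 7-mers were found in these same data. The removed genes include SYP, the lowest of the 9 in B, and SCAMP5, which held the median, so nothing is read from this shift. Under the other alternatives run (a 1.5-fold threshold and re-centring on the median of all genes) counts stayed within 1.5 times and medians within 0.1. Among values of single genes and other lists, a shift of at least 0.1 log2 units followed the adjustment in 23 and not in 40, the mean in 3 and not in 33, the removal of 7-mer carriers in 6 and not in 27, and re-centring in 0 of 63, with no sign reversed among called values. Another pseudocount and a filter on low levels were not run, though neither needs the names of the level columns. How far the values depend on them is unknown. The search for miRNA matches, overlaps and the genes richest in GC was chosen after the data were seen.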

Other observations

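Exact strings of both REST element parts were present in 9 of 35116 RefSeq promoters, in any order, strand or distance. These were the promoters of UNC80, CELSR3, GRIA2, LHX3, PSD, TPH2, EXD2, SCG3 and UNC13A. A whole element is not shown by such a match. This list was drawn up after the data were seen. Most of these genes are known for roles in neurons or endocrine cells, such as SCG3, a granin, and UNC13A, which primes synaptic vesicles. Only CELSR3 and EXD2 had values used here, and EXD2 was at -0.04 in comparison A and -0.17 in B in the authors' deposited table. Among 32 genes with values whose promoter held the left part, CELSR3 alone was past 2-fold in either comparison, and their median was 0.05 in A and -0.02 in B. Among 282 with the right part, CELSR3 alone was higher in comparison A. KIAA0319L alone was lower in B, at -1.03 in the authors' deposited table. In A minus B 3 of the 282 were higher, CELSR3, KIAA0319L and SRRM3, and REST alone was lower, where 1.31% of all genes were higher and 0.349% lower. These counts in A minus B are near the shares over all genes. The counts in A and in B are single genes, where 0.174% of all genes were higher in A and 0.748% lower in B. CELSR3 was chosen for its high value, so nothing is read from its place here.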
